A study of Mus musculus with 13 samples.

Results

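Tcf21, Npnt, Inmt and Itga8 are genes known from lung fibroblasts, and their read counts were followed here in FAPs of lung, FAPs of skeletal muscle and MEFs of the mouse. They were chosen by name as known genes of lung fibroblasts, with earlier results of these data known. They are 4 of the 23418 genes in the count table, and all 4 were among the 15412 genes that passed the expression filter. In every comparison of lung FAP with either other group the 4 genes were higher in lung FAP, but their levels in the other groups differed. Between muscle FAP and MEF, only Inmt and Npnt passed, Inmt as higher in muscle FAP and Npnt as lower. Tcf21 was near 0 in both muscle FAP and MEF, and Itga8 was lower than in lung FAP but present in both. Npnt was near 0 in muscle FAP and intermediate in MEF, and Inmt was intermediate in muscle FAP and near 0 in MEF.

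The study sequenced total RNA in bulk from 13 libraries, with 5 of lung FAP (replicates 1 to 5), 4 of muscle FAP (replicates 2 to 5) and 4 of MEF (replicates 1 to 4). FAP stands in the field for fibro/adipogenic progenitor, a mesenchymal cell of the interstitium, and MEF for mouse embryonic fibroblast, a cultured cell, while the labels give only the abbreviations with the tissue. Strain, sex, age, treatment and the sort or gate behind the FAPs are not stated in the labels, and the parabiosis arm that the design mentions was not analysed here. The labels do not say that replicates came from separate animals or cultures, so a p-value here speaks of variation among libraries, which may be technical.

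Fibroblasts of the lung interstitium build the matrix around airways and alveoli and support the alveolar epithelium. Tcf21 is a basic helix-loop-helix (bHLH) transcription factor of visceral mesenchyme that marks fibroblasts along the alveoli, including the lipid-storing ones. Npnt encodes nephronectin, a basement membrane protein whose RGD motif is bound by the integrin of the alpha 8 chain, encoded by Itga8, and the beta 1 chain, encoded by Itgb1. This ligand and receptor are best known from kidney development, where they act upstream of the growth factor Gdnf and its receptor Ret. Inmt encodes indolethylamine N-methyltransferase, an enzyme abundant in lung that moves a methyl group from S-adenosylmethionine to tryptamine and related amines.

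The 4 genes lie on 4 chromosomes, all on the minus strand, with positions from GENCODE M21 on GRCm38, the assembly also named mm10. Tcf21 is at chr10:22817281-22820174, Npnt at chr3:132881745-132950291, Inmt at chr6:55170626-55175043 and Itga8 at chr2:12106632-12301922. Their upstream sequences are shown because the genes were higher together in lung FAP, so that a reader can compare what precedes each start. Each is a window of 197 bases from RefSeq on GRCm38.p6, printed 5′ to 3′ on the gene's own strand, from 250 to 54 bases before the RefSeq start. Capitals mark CANNTG, the E-box that bHLH factors bind, and TATAAA, searched on both strands.
Tcf21: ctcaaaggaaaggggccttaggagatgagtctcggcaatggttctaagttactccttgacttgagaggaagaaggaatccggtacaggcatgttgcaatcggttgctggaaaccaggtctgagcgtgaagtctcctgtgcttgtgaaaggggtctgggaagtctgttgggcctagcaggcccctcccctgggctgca
Npnt: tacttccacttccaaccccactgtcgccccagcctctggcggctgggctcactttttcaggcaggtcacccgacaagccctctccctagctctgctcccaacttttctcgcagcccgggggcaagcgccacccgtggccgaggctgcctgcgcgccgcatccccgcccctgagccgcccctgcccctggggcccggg
Inmt: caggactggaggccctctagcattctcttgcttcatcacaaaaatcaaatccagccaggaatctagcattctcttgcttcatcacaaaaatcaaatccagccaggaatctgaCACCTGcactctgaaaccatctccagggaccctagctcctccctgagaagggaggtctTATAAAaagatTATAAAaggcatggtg
Itga8: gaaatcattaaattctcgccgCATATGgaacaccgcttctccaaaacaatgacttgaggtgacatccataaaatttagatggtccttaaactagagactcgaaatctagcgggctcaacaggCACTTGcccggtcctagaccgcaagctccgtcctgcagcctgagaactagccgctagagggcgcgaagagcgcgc
The windows are chr10:22820197-22820393 for Tcf21, chr3:132950345-132950541 for Npnt, chr6:55175044-55175240 for Inmt and chr2:12301998-12302194 for Itga8.

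The windows had little in common. The Inmt window held 1 E-box and 2 matches to TATAAA, 27 and 16 bases before the GENCODE start of Inmt, and 0 CpG sites. It also held a stretch of 46 bases present as 2 copies in tandem. The Itga8 window held 2 E-boxes and 13 CpG sites. The Npnt window had 14 CpG sites and a GC content of 70.6%, and the Tcf21 window had 4 CpG sites and a GC content of 54.3%; neither held an E-box. Of 32851 windows of the same length, 58.6% held CANNTG and 9.05% held TATAAA, and their median GC content was 51.8%. All windows stop 54 bases before the RefSeq start, so matches nearer to it were not counted. The Inmt window reaches the GENCODE start of its gene, while those of Tcf21, Npnt and Itga8 stop short of theirs. The E-box CAGCTG, which also counts under CANNTG, was in 0 of the 4 windows and in 10.2% of all windows. The forkhead motif TGTTTAC was in 0 of the 4 and in 2.54% of all. The T-box half-site AGGTGTGA was in 0 of the 4 and in 0.907% of all. These matches are letters in a window and were not tied to binding.

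The libraries held 28636183 to 35464622 counted reads in lung FAP, 41327292 to 44699463 in muscle FAP and 33756915 to 41466585 in MEF. Levels are read counts relative to library size (CPM) scaled by the trimmed mean of M values (TMM), and tests are edgeR's quasi-likelihood test with Benjamini-Hochberg adjustment over all 15412 genes, with a threshold of 0.05. The FAP labels were checked on markers of these cells: Pdgfra was at 792 ± 27.5 CPM in lung FAP (SD, n = 5), 1384 ± 91.4 in muscle FAP (SD, n = 4) and 29.8 ± 4.88 in MEF (SD, n = 4). Cd34 had nearly the same mean in both FAP groups, 1625 and 1619 CPM, against 24.9 CPM in MEF. Of the 6 FAP markers listed, 4 were higher in lung FAP than in MEF, 1 was lower and 1 did not pass. In muscle FAP over MEF, 5 were higher, 0 were lower and 1 did not pass. Of all tested genes, 37.8% were higher in lung FAP over MEF and 36.1% in muscle FAP over MEF. In lung FAP over muscle FAP, 0 of the 6 were higher, 3 were lower, among them Dcn (log2 fold change -0.58), and 3 did not pass. Of all tested genes, 25.0% were higher in that comparison and 23.2% were lower. Within lung FAP, replicate 3 stood apart by markers of lung epithelium, with alveolar type 2 markers summing to 3831 CPM against 34.9 to 59.7 CPM in the other lung FAP libraries, and replicate 2 by endothelial markers, at 578 CPM against 34.9 to 176 CPM. In muscle FAP, markers of tenocytes, the cells of tendon, summed to 848 to 1634 CPM, against 7.74 to 57.7 CPM in lung FAP and 40.1 to 43.1 CPM in MEF, and all 4 of them were detected in each group. The most abundant was Thbs4, at 1183 CPM in muscle FAP, 29.6 CPM in lung FAP and 1.15 CPM in MEF, and Scx and Tnmd were at 0 in some lung FAP libraries. All 4 tenocyte markers were lower in lung FAP than in muscle FAP, as were 23.2% of tested genes. In muscle FAP over MEF, 2 of them were higher and 2 were lower, where 36.1% and 37.3% of tested genes were. The part of tenocytes in the levels of the 4 genes was not tested. The 4 genes and the gene lists are also given without lung FAP 2 or 3 where this changed a count or moved a value.

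Tcf21, the transcription factor, was well expressed in lung FAP and near 0 in muscle FAP and MEF. Its values in lung FAP 1 to 5 were 95.4, 120.3, 100.5, 123 and 121 CPM. In muscle FAP 2 to 5 they were 0.0871, 1.5, 0.344 and 1.10 CPM, from 3, 51, 12 and 37 reads, and in MEF 1 to 4 they were 0.615, 0.538, 0.254 and 0.291 CPM. The 5 lung libraries lay close together and far above the other 8, while muscle FAP and MEF overlapped.

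The mean Tcf21 level was 112 ± 13.1 CPM in lung FAP (SD, n = 5), 0.759 ± 0.656 CPM in muscle FAP (SD, n = 4) and 0.425 ± 0.179 CPM in MEF (SD, n = 4). The log2 fold change of lung FAP over muscle FAP was 7.21 (SE 0.79, 148.5-fold, edgeR adjusted p = 8.84e-08), rank 99 of 15412 genes from the highest. In bulk samples, fewer cells expressing a gene and less of its RNA per cell cannot be told apart, which holds for every gene here. Against MEF, the log2 fold change of lung FAP was 8.08 (SE 0.29, 270.2-fold, edgeR adjusted p = 5.89e-09). These comparisons share the lung libraries and are given side by side.

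Between muscle FAP and MEF, Tcf21 did not pass: the log2 fold change was 0.86 (SE 0.84, edgeR adjusted p = 0.174). Leaving out muscle FAP 2, the library with 3 reads, gave 1.22 with an adjusted p of 0.0163 by edgeR, and over all alternatives that p ran from 0.0163 to 0.942. The muscle libraries with the most Tcf21, replicates 3 and 5, also had the most of the mesothelial markers. The 6 mesothelial markers, all detected in muscle FAP, summed to 2.21, 24.3, 1.21 and 28.1 CPM in muscle FAP 2 to 5, and of them Lrrn4 was at 0 in muscle FAP 4. In lung FAP 1 to 5 the same sum was 938, 428, 411, 601 and 727 CPM. Lung FAP 1 thus had the highest mesothelial sum of the lung libraries and the lowest Tcf21 of them. In MEF the sum was 121 to 160 CPM. The part of mesothelial cells in the Tcf21 level was not tested.

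**Figure D1:**
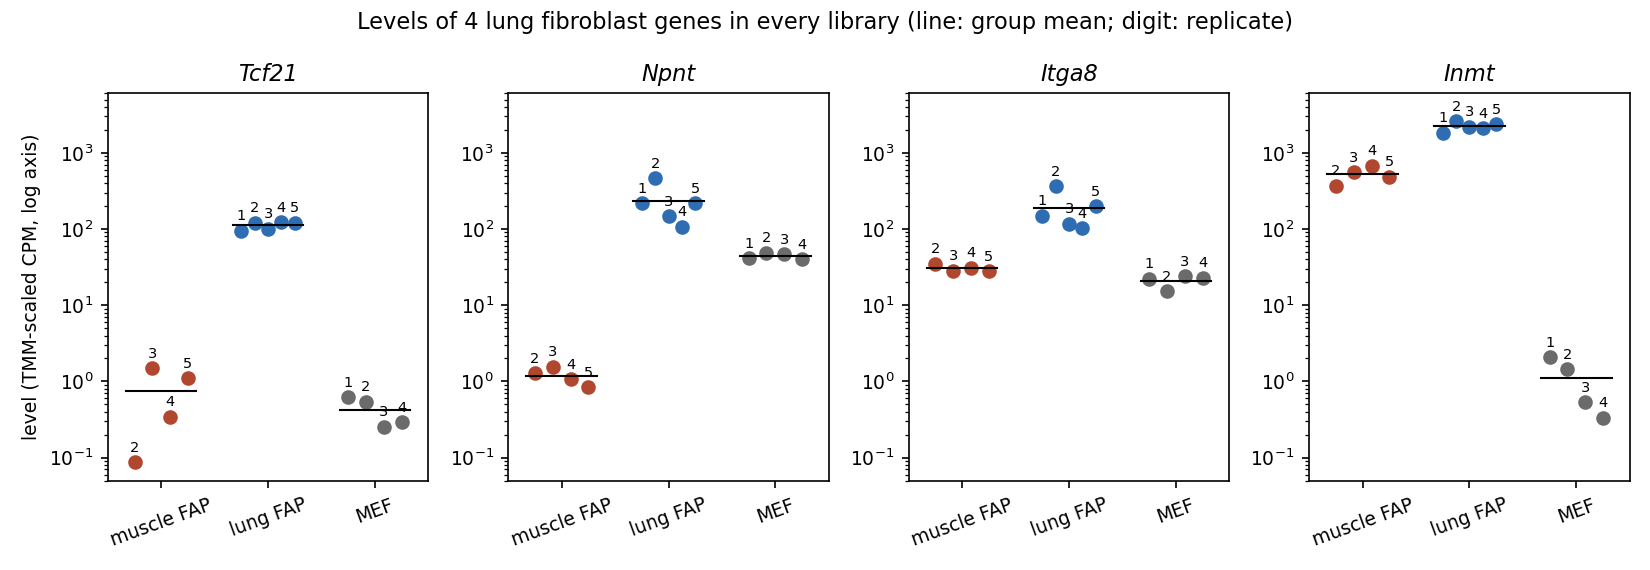
Level of Tcf21, Npnt, Inmt and Itga8 in each library, as TMM-scaled CPM on a log axis, with 1 point per library numbered by replicate and the group mean. All 4 genes are highest in lung FAP; Npnt is lowest in muscle FAP, Inmt is lowest in MEF, and Tcf21 is near 0 in both muscle FAP and MEF.

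Npnt, the integrin ligand, was high in lung FAP, intermediate in MEF and near 0 in muscle FAP. The values in lung FAP 1 to 5 were 219.5, 461, 148, 107 and 217 CPM. In MEF 1 to 4 they were 41.1, 48.9, 46.7 and 39.8 CPM. In muscle FAP 2 to 5 they were 1.28, 1.56, 1.06 and 0.834 CPM, from 44, 53, 37 and 28 reads. No libraries of any pair of groups overlapped, and the lung libraries differed 4.32-fold among themselves, with lung FAP 2 the highest and lung FAP 4 the lowest.

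The mean Npnt level was 230.5 ± 137 CPM in lung FAP (SD, n = 5), 44.1 ± 4.38 CPM in MEF (SD, n = 4) and 1.18 ± 0.309 CPM in muscle FAP (SD, n = 4). The log2 fold change of Npnt in lung FAP over muscle FAP was 7.61 (SE 0.40, 195-fold, edgeR adjusted p = 4.47e-08), rank 75 of 15412. Over MEF it was 2.42 (SE 0.36, 5.36-fold, edgeR adjusted p = 2.68e-05). Muscle FAP was lower than MEF, with a log2 fold change of -5.19 (SE 0.20, edgeR adjusted p = 1.35e-07), or 36.5-fold. Without lung FAP 2 the log2 fold change over muscle FAP was 7.18 and that over MEF was 1.97.

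Itga8, the alpha chain of the nephronectin receptor, was highest in lung FAP and present in all 13 libraries. Its values in lung FAP 1 to 5 were 149, 367, 117, 103 and 199 CPM. In muscle FAP 2 to 5 they were 35.1, 28.3, 30.9 and 27.7 CPM, and in MEF 1 to 4 they were 22.3, 15.2, 23.8 and 22.96 CPM. Lung FAP 2 was again the highest and lung FAP 4 the lowest lung library, and every muscle library lay above every MEF library.

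The mean Itga8 level was 187 ± 107 CPM in lung FAP (SD, n = 5), 30.5 ± 3.34 CPM in muscle FAP (SD, n = 4) and 21.1 ± 3.95 CPM in MEF (SD, n = 4). The log2 fold change of lung FAP was 2.63 over muscle FAP (SE 0.34, 6.17-fold, edgeR adjusted p = 3.03e-05) and 3.19 over MEF (SE 0.36, 9.11-fold, edgeR adjusted p = 1.64e-06). Without lung FAP 2 these values were 2.21 and 2.76. Muscle FAP against MEF did not pass, with 0.56 (SE 0.17, edgeR adjusted p = 0.139). That call changed with the setting: the adjusted p was 0.00230 with edgeR on these groups alone and 0.0159 with limma-voom, and the log2 fold change was -0.015 when scaled by library size only, with a range of adjusted p from 0.00230 to 1 over all alternatives. The Itga8 gene overlaps an antisense gene, E030013I19Rik, on 372 exonic bases, 5.05% of its exons, and without strand in the sources used here reads there cannot be assigned. E030013I19Rik itself was counted at 1.99 CPM in lung FAP, 0.0297 CPM in muscle FAP and 0.183 CPM in MEF.

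Inmt, the methyltransferase, was highest in lung FAP, lower in muscle FAP and near 0 in MEF. Its values in lung FAP 1 to 5 were 1835, 2580.2, 2209.5, 2086 and 2361 CPM. In muscle FAP 2 to 5 they were 369.7, 560.4, 681 and 484 CPM, and in MEF 1 to 4 they were 2.07, 1.44, 0.532 and 0.332 CPM. The 3 groups did not overlap.

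The mean Inmt level was 2214 ± 281 CPM in lung FAP (SD, n = 5), 524 ± 131 CPM in muscle FAP (SD, n = 4) and 1.09 ± 0.809 CPM in MEF (SD, n = 4). The log2 fold change of lung FAP over muscle FAP was 2.09 (SE 0.20, 4.25-fold, edgeR adjusted p = 1.71e-04), the lowest of the 4 genes. Over MEF it was 11.03 (SE 0.58, 2091-fold, edgeR adjusted p = 1.39e-10), rank 12 of 15412 genes and the highest of the 4. Muscle FAP was also above MEF, by a log2 fold change of 8.94 (SE 0.60, 492-fold, edgeR adjusted p = 6.87e-10).

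All 4 genes passed as higher in lung FAP over muscle FAP, where 25.0% of all tested genes did (48.2% in either direction), and without overlap, where 18.6% of tested genes did. These shares depend on the scaling: with library size only, 7455 genes were higher and 1730 lower in lung FAP over muscle FAP, against 3850 and 3574 with TMM. All 4 also passed as higher over MEF, against 37.8% of tested genes (74.4% in either direction), and without overlap, against 31.4%. In muscle FAP against MEF, where 73.5% of tested genes passed in either direction, Inmt passed as higher, as did 36.1% of genes, Npnt passed as lower, as did 37.3%, and Tcf21 and Itga8 fell short of the threshold. With library size only, 3757 genes were higher and 8089 lower in that comparison, against 5570 and 5756 with TMM. Inmt and Itga8 were higher there without overlap, as were 35.1% of tested genes, and Npnt was lower without overlap, as were 39.0%. Over the 4 genes the median log2 fold change was 4.92 over muscle FAP and 5.63 over MEF, where the medians of all tested genes were 0.04 and 0.02. The 4 genes were chosen with earlier results of these data known, so their counts and medians are no independent evidence of direction. Without lung FAP 3, the library with epithelial markers, the log2 fold changes over muscle FAP were 7.25 for Tcf21, 7.74 for Npnt, 2.09 for Inmt and 2.76 for Itga8, each at least as large as with it.

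Levels between genes were compared per kilobase of exon. Inmt was at 1384 ± 176 CPM per kb in lung FAP (SD, n = 5), rank 14 from the highest of 15295 genes with a length, and at 327 ± 81.8 CPM per kb in muscle FAP (SD, n = 4), rank 157. Tcf21 and Npnt had much the same level in lung FAP, 47.7 ± 5.56 and 45.9 ± 27.4 CPM per kb (SD, n = 5), at ranks 818 and 858. Itga8 followed with 25.4 ± 14.5 CPM per kb (SD, n = 5), rank 1561. Per kb the order by mean in lung FAP was thus Inmt, Tcf21, Npnt, Itga8, but Tcf21 and Npnt differed by less than their spread, and Npnt exceeded Tcf21 per kb in lung FAP 1 and 2. In MEF the highest of the 4 was Npnt, with 8.78 ± 0.871 CPM per kb (SD, n = 4), and Inmt was at 0.683 ± 0.506 CPM per kb (SD, n = 4).

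The nearest protein-coding genes did not follow the members in size. Tbpl1 and Eya4, on either side of Tcf21, were at 27.3 and 10.8 CPM in lung FAP and at 27.5 and 7.64 CPM in muscle FAP. Gstcd, beside Npnt, was at 6.57 CPM in lung FAP and 7.00 CPM in muscle FAP. Fam188b, beside Inmt, was at 21.8 CPM in lung FAP, 25.2 CPM in muscle FAP and 4.04 CPM in MEF. Fam188a, beside Itga8, was at 27.5 CPM in lung FAP and 23.4 CPM in muscle FAP.

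Ligand and receptor chain were set against each other in each library, which cancels the scaling of libraries. The ratio of Npnt to Itga8 per kb of exon was 2.16, 1.84, 1.86, 1.52 and 1.60 in lung FAP 1 to 5. In muscle FAP 2 to 5 it was 0.0534, 0.0808, 0.0505 and 0.0441, and in MEF 1 to 4 it was 2.70, 4.71, 2.88 and 2.54. Lung FAP and MEF thus had more Npnt than Itga8 transcript per length in every library, and muscle FAP had 12.4 to 22.7 times more Itga8 than Npnt. The mean log2 ratio was higher in lung FAP than in muscle FAP by 5.0 (exact permutation test, two-sided, p = 0.00794, the smallest p that 126 splits of 9 libraries allow). The ratios of lung FAP and muscle FAP listed above did not overlap, and both genes were chosen with earlier results known. The p thus adds no separate evidence.

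**Figure D2:**
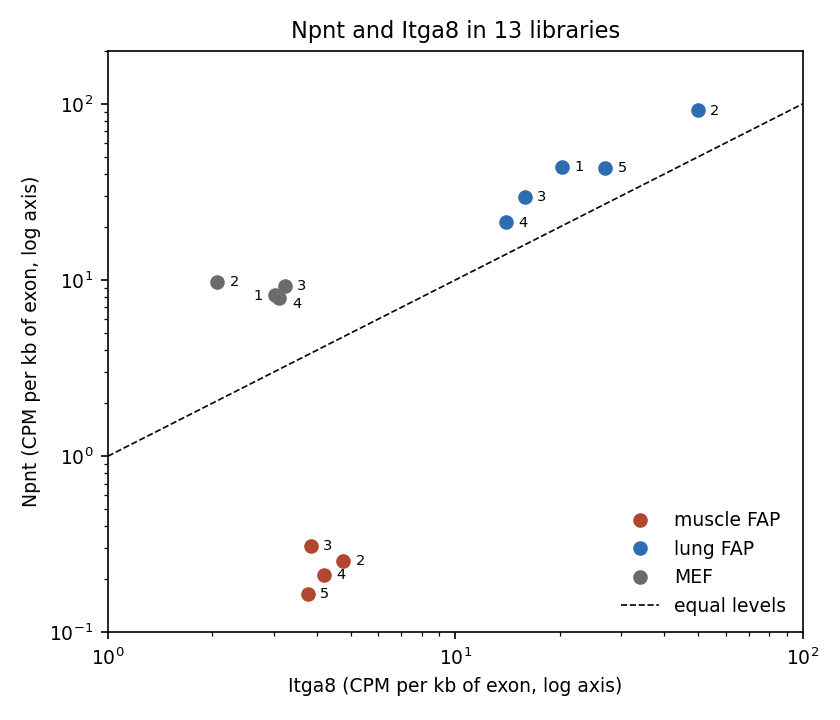
Npnt against Itga8 in each of the 13 libraries, both as CPM per kb of exon on log axes, numbered by replicate, with a dashed line where the levels are equal. Lung FAP and MEF libraries lie above the line, with Npnt over Itga8 ratios of 1.52 to 4.71, and the 4 muscle FAP libraries lie far below it, at 0.0441 to 0.0808.

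Itgb1, the beta chain that pairs with the Itga8 product, did not pass between lung FAP and muscle FAP. Its level was 753 ± 116 CPM in lung FAP (SD, n = 5) and 880.2 ± 46.9 CPM in muscle FAP (SD, n = 4), a log2 fold change of -0.22 (SE 0.10, edgeR adjusted p = 0.237). Per kb, Itgb1 stood at 184.5 CPM in lung FAP and 215.7 CPM in muscle FAP, well above the 25.4 and 4.14 CPM per kb of Itga8. Of 7 other subunits of integrins that bind RGD, 4 were lower in lung FAP than in muscle FAP, against 23.2% of all tested genes, 0 were higher and 3 did not pass. All 4 were lower without overlap, as were 19.2% of tested genes. They included Itgav with a log2 fold change of -0.96 and Itga5 with -0.90, the alpha chains of the vitronectin and fibronectin receptors, and Itgb3 with -0.84. Among the alpha chains Itga8, Itga5, Itgav and Itga2b, a set put together after the values were seen, Itga8 made up 28.9 ± 12.9% of the summed level per kb in lung FAP (SD, n = 5; range 18.9% to 50.8%). In muscle FAP the share was 3.61 ± 0.392% (SD, n = 4) and in MEF 3.29 ± 0.467% (SD, n = 4).

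Genes around nephronectin did not rise as a group. Of the 12 genes listed as partners, relatives or downstream genes of nephronectin, 2 were higher in lung FAP than in muscle FAP, 5 were lower and 5 did not pass, where 25.0% of all tested genes were higher and 23.2% lower. The median log2 fold change was -0.67. Without lung FAP 2 it was -0.46, with 3 higher and 5 lower, and without lung FAP 2 and 3 it was -1.01, with 2 higher and 6 lower. The 2 that rose were Fras1 (13.8 against 2.35 CPM, log2 fold change 2.56) and Frem1 (25.3 against 5.22 CPM, 2.29), whose products hold nephronectin in the basement membrane. Ret, the receptor of Gdnf, was lower in lung FAP at 3.04 ± 2.38 CPM (SD, n = 5) against 222 ± 65.0 CPM (SD, n = 4), a log2 fold change of -6.18 (SE 0.57, edgeR adjusted p = 1.11e-06). Gdnf itself was lower too, at 0.789 against 6.51 CPM, a log2 fold change of -3.03. Vtn, which encodes vitronectin, was lower at 9.28 against 205 CPM, and Egfl6, a relative of Npnt, did not pass at 4.25 against 6.60 CPM. Against MEF, 3 of the 12 were higher in lung FAP and 7 were lower, where 37.8% of tested genes were higher and 36.6% lower.

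Most bHLH relatives and dimer partners of Tcf21 were lower in lung FAP or did not pass. Of 14 tested, 1 was higher in lung FAP than in muscle FAP, 6 were lower and 7 did not pass, beside the 25.0% and 23.2% of all tested genes, with a median log2 fold change of -0.52. Without lung FAP 2 the lower ones numbered 5, and without lung FAP 2 and 3 they numbered 4 (median -0.39). Msc, which encodes musculin, the close relative of Tcf21 known from muscle, was lower in lung FAP at 3.97 against 17.1 CPM, a log2 fold change of -2.10. Twist1, a bHLH factor of mesenchyme, was at 14.7 against 62.5 CPM, a log2 fold change of -2.08. Of the E proteins that dimerise with Tcf21, Tcf4 was lower (127 against 228 CPM, -0.83), while Tcf3 (0.18, edgeR adjusted p = 0.207) and Tcf12 (-0.10, edgeR adjusted p = 0.494) did not pass. Against MEF, 5 of the 14 were higher in lung FAP and 6 were lower, near the shares of all tested genes (37.8% and 36.6%).

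Genes of amine methylation and amine breakdown included some that were higher and some that were lower. Of 12 tested, 3 were higher in lung FAP than in muscle FAP, 5 were lower and 4 did not pass, with a median log2 fold change of -0.23. The share that was higher equals the 25.0% of all tested genes, of which 23.2% were lower. Maob and Maoa, the monoamine oxidases, rose with log2 fold changes of 1.40 (84.3 against 32.1 CPM) and 0.76 (34.0 against 20.2 CPM). Nnmt, which encodes the nicotinamide methyltransferase related to Inmt, was lower at 44.0 against 72.7 CPM, a log2 fold change of -0.71. Ahcyl1, related to the enzyme that clears S-adenosylhomocysteine, was lower with -0.87. Against MEF, 5 of the 12 were higher in lung FAP and 4 were lower, near the 37.8% and 36.6% of all tested genes.

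Other genes of lung mesenchyme mostly went the way of the 4. Of 25 listed, 18 were higher in lung FAP than in muscle FAP, 4 were lower and 3 did not pass, against 25.0% higher and 23.2% lower of all tested genes, with a median log2 fold change of 2.0. The list was put together with results of these data known, so its count is no independent evidence of direction. Scn3a, a sodium channel gene, had 19.9 against 0.0217 CPM (log2 fold change 9.63), Nebl, which encodes the actin-binding nebulette, had 20.8 against 0.146 CPM (7.13), and the growth factor receptor gene Fgfr4 had 11.7 against 0.169 CPM (6.10). Col13a1, a collagen gene used to mark alveolar fibroblasts, had 36.6 against 1.75 CPM (4.39). Cxcl14, a chemokine gene, went the other way with 111 against 1767 CPM (-3.99). Without lung FAP 2, and without both lung FAP 2 and 3, 18 of the 25 were again higher and 5 were lower. Against MEF, 23 of the 25 were higher in lung FAP, where 37.8% of tested genes were, 0 were lower and 2 did not pass.

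Genes of other kinds of lung fibroblast showed no common direction between the FAPs. Of 8 genes of adventitial fibroblasts, 3 were higher in lung FAP than in muscle FAP, 2 were lower and 3 did not pass, beside the 25.0% and 23.2% of all tested genes. Without lung FAP 2 these counts were 4 and 2, and without lung FAP 2 and 3 they were 4 and 1. Pi16, the main marker of adventitial fibroblasts, was at 3196 ± 1037 CPM (SD, n = 5) against 1177 ± 162 CPM (SD, n = 4), a log2 fold change of 1.45, Col14a1 rose with 0.89 and Serpinf1 fell by 1.29 on the log2 scale. All 8 were higher in lung FAP than in MEF, where 37.8% of tested genes were. Of 6 genes of lung myofibroblasts, 3 were higher in lung FAP than in muscle FAP, among them Hhip (2.06) and Wnt5a (1.42), and 3 were lower, among them Tgfbi (-1.32). Against MEF, 4 of these 6 were higher, and of the other two 1 was lower.

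**Figure D3:**
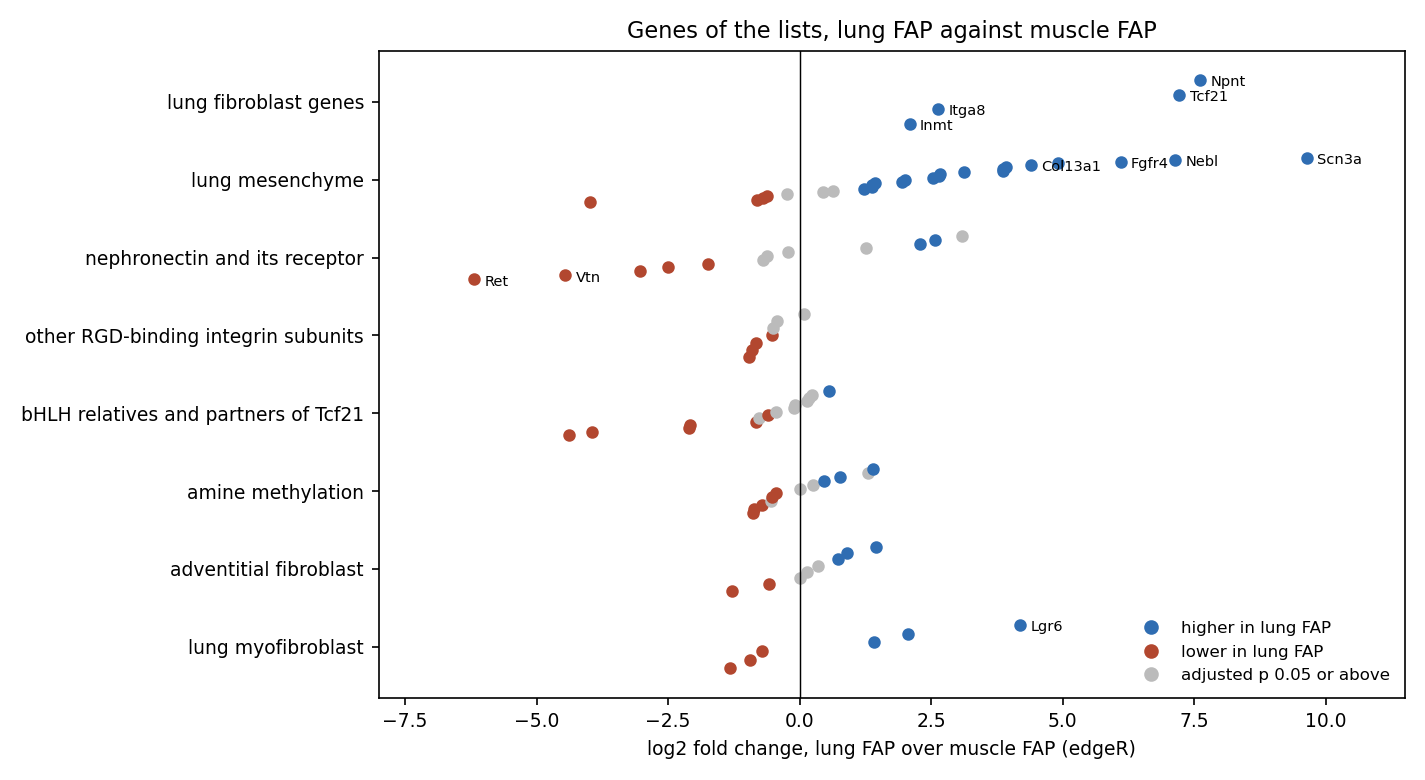
Log2 fold change of lung FAP over muscle FAP, by edgeR, for the 4 genes and 7 lists of related genes, with 1 point per gene, blue where higher, red where lower and grey where the adjusted p was 0.05 or above. The lung mesenchyme list lies mostly to the right with a median of 2.0, while genes around nephronectin, the RGD-binding integrins and the bHLH relatives have medians of -0.67, -0.52 and -0.52.

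Within lung FAP the 4 genes fell into an even pair and an uneven pair. The coefficient of variation over the 5 libraries was 11.7% for Tcf21 and 12.7% for Inmt, against 59.6% for Npnt and 57.3% for Itga8. Markers of pericytes and smooth muscle, 11 of 11 detected in every group, summed to 750.5, 2138, 618, 349 and 1381 CPM in lung FAP 1 to 5, the same order of libraries as Itga8. Npnt had the same highest and lowest library. The same sum was 102 to 109 CPM in muscle FAP and 2207 to 3950 CPM in MEF, where Higd1b was at 0 in some libraries. Counted by gene, 6 of the 11 were higher in lung FAP than in MEF, 3 were lower and 2 did not pass. Of all tested genes, 37.8% were higher in lung FAP than in MEF and 36.6% were lower. Acta2, the smooth muscle actin gene, was the most abundant of these markers in lung FAP at 442 ± 293 CPM (SD, n = 5), and it was at 5.30 ± 0.892 CPM in muscle FAP (SD, n = 4). Lung FAP 4 had the lowest sum of these markers in lung FAP, 349 CPM, which was still above that of every muscle FAP library. Its levels were 107 CPM for Npnt and 103 CPM for Itga8, each above every muscle FAP and MEF library. The part of pericytes and smooth muscle cells in the levels of Npnt and Itga8 was not tested.

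**Figure D4:**
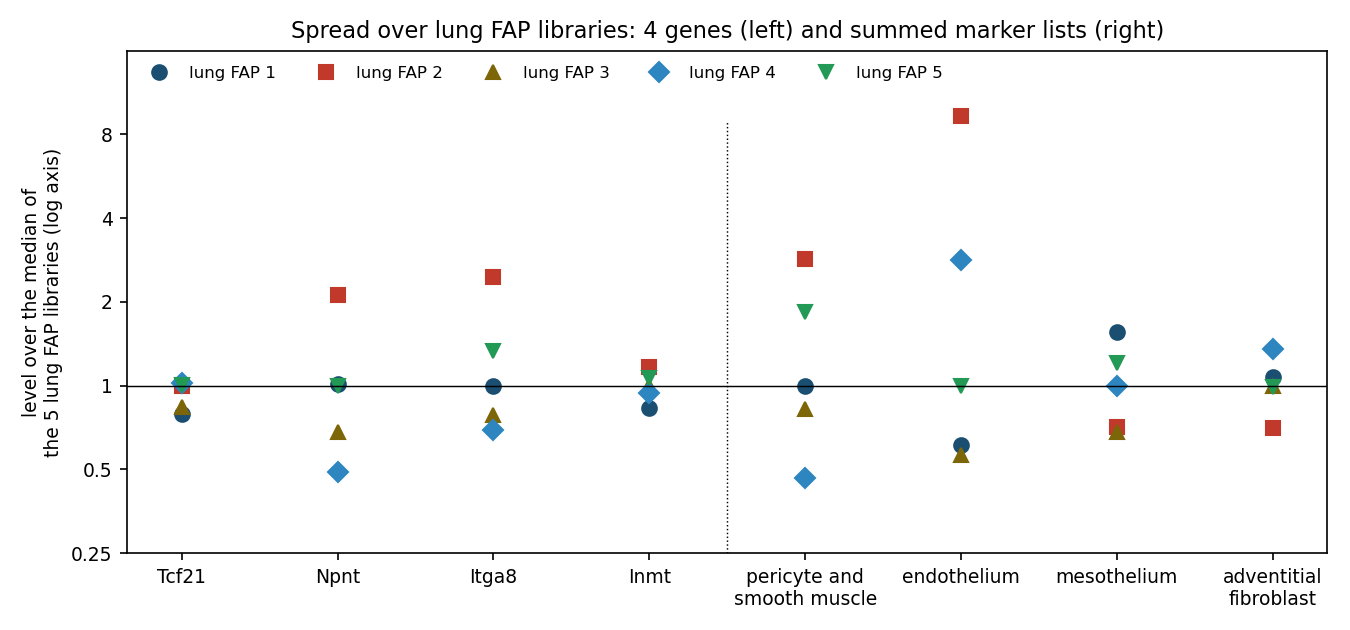
Level of each of the 4 genes (left) and summed level of 4 marker lists (right) in the 5 lung FAP libraries, divided by the median of those libraries, on a log axis. Tcf21 and Inmt stay near 1, whereas Npnt and Itga8 are highest in lung FAP 2 and lowest in lung FAP 4, as are the pericyte and smooth muscle markers.

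The genes most like each member were found over the 13 libraries, as the smallest root mean square (RMS) difference of log2 CPM after centring, among 9947 genes with at least 10 CPM in their highest group. Much of this likeness comes from the differences between groups, and it is given as a description. Nearest to Tcf21 were the amino acid transporter gene Slc38a5 (RMS difference 0.50), Pkhd1l1 (0.58) and the interleukin gene Il1b (0.92). Pkhd1l1 shared the level near 0 in both other groups, with 142 ± 45.2 CPM in lung FAP (SD, n = 5), 1.59 ± 1.86 CPM in muscle FAP (SD, n = 4) and 0.371 ± 0.125 CPM in MEF (SD, n = 4). Nearest to Npnt were Dbc1 (0.67), the carbonic anhydrase gene Car2 (0.77) and the potassium channel gene Kcnk3 (0.95). Dbc1 had 10.1 ± 2.62 CPM in lung FAP (SD, n = 5), 0.0876 ± 0.0712 CPM in muscle FAP (SD, n = 4) and 4.71 ± 0.702 CPM in MEF (SD, n = 4).

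Nearest to Inmt were the complement genes C7 (0.50) and C4b (0.55), with the monooxygenase gene Fmo2 (0.52) between them. C7 had 1945 ± 225 CPM in lung FAP (SD, n = 5), 740.1 ± 177 CPM in muscle FAP (SD, n = 4) and 0.927 ± 0.600 CPM in MEF (SD, n = 4). Nearest to Itga8 were Synpo2, which encodes an actin-binding protein (0.31), the cyclic GMP phosphodiesterase gene Pde5a (0.39) and the T-box factor gene Tbx5 (0.39). Tbx5 had 40.0 ± 11.1 CPM in lung FAP (SD, n = 5), 10.4 ± 3.64 CPM in muscle FAP (SD, n = 4) and 5.14 ± 0.688 CPM in MEF (SD, n = 4). None of the 4 members was among the 3 nearest of another: the closest pair, Npnt and Itga8, differed by 2.48 and the farthest, Npnt and Inmt, by 5.73.

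Over the 9 FAP libraries alone, Tcf21 kept 2 of its 3 nearest genes, Npnt kept 1, and Inmt and Itga8 kept 0. The nearest of Itga8 were the T-box factor genes Tbx2 (0.23) and Tbx4 (0.25) with Scube2 (0.25). Those of Npnt were Car2 (0.45), the smooth muscle calponin gene Cnn1 (0.46) and Scn3a (0.51). Cnn1 was at 79.5 CPM in MEF and 39.2 CPM in lung FAP. Those of Tcf21 were Pkhd1l1 (0.52), Slc38a5 (0.58) and Cntn4 (0.68), and those of Inmt were Adhfe1 (0.20), Slc25a13 (0.21) and Mettl7a1 (0.23). Slc25a13 was low in the FAPs, at 1.19 CPM in lung FAP and 0.249 CPM in muscle FAP, from 200 and 34 reads. It was highest in MEF, at 17.9 CPM, where Inmt was near 0. Only through MEF did Slc25a13 reach the minimum level of the genes compared.

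**Figure D5:**
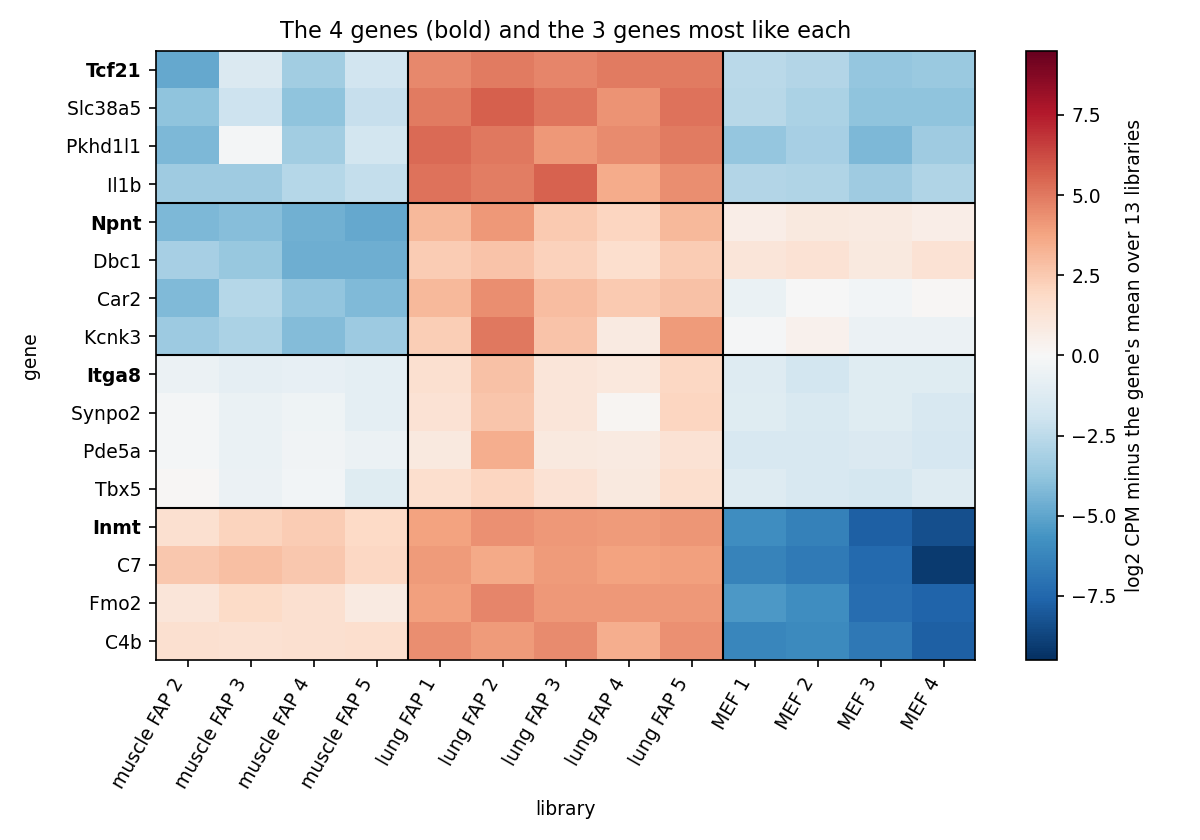
Log2 CPM of the 4 genes (bold) and of the 3 genes most like each over 13 libraries, minus each gene's mean over the libraries, as a colour scale from blue (lower) to red (higher). The Inmt block is lowest in MEF, the Npnt block is lowest in muscle FAP, and the Tcf21 block is low in both.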

How the data were processed

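Total RNA of 13 mouse libraries was extracted (Trizol, RNeasy Micro) and made into Illumina libraries, per the labels' protocols. The authors used Bowtie2 2.1.0.0 for alignment on mm10, HTSeq for counting, and edgeR, per the submitters' processing notes. The deposited table holds 1 raw read count per gene and library, with 0 columns of other samples; gene annotation and strand are stated in no source used here.

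Groups came from the labels. Counts were tested with edgeR 4.0.16 in R 4.3.3 (quasi-likelihood, robust dispersion, TMM, filterByExpr, 13 libraries in 1 fit, group as the only factor), and p-values were Benjamini-Hochberg adjusted over 15412 genes. CPM were scaled by TMM over the whole table. SEs come from log2 CPM with a prior count of 2. Exon lengths came from GENCODE M21 and matched 99.2% of tested genes.

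The 4 genes and the lists of related genes and markers (19 lists with that of the 4 genes, 159 genes in all, of which 158 were found and Tcf24 was not) were chosen with earlier results of these data known. From each list the text names the 3 passing genes with the largest change and at least 5 CPM, pairing partners of the 4 genes, and further members as examples chosen after their values were seen, and from marker lists the most abundant member and others beside a result. Alternatives were size factors and the Wald test of DESeq2 1.42.0, upper-quartile scaling, library size only, no filter, at least 5 CPM in at least 4 libraries, limma-voom (limma 3.58.1), glmTreat against a 2-fold change, the compared groups alone, a replicate block, and libraries left out. No libraries held identical values.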

Additional observations from a re-analysis of the deposited data

Results flagged for a closer look

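Of 39 groups of values tested for a sample far from the others, 5 were flagged, and chance flags about 1 in 20. In MEF, the ratio of Npnt to Itga8 per kb was 4.71 in MEF 2 against 2.54 to 2.88 in the other MEF libraries, and MEF 2 had both the highest Npnt and the lowest Itga8 of its group. In lung FAP 3 the markers of airway epithelium summed to 5811 CPM against 22.0 to 145 CPM in the other lung FAP libraries. Those of alveolar type 2 epithelium summed to 3831 CPM against 34.9 to 59.7 CPM, and those of blood cells to 662 CPM against 34.8 to 57.8 CPM. Of that 662 CPM, 609 CPM came from Lyz2, 1 of the 10 blood cell markers. In the same library the 4 lung fibroblast genes lay between the lowest and the highest lung FAP library. In lung FAP 2 the endothelial markers summed to 578 CPM against 34.9 to 176 CPM, and Npnt, Itga8 and Inmt were highest in that library.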

How the results depend on the processing

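The 4 genes stayed higher in lung FAP and past the threshold under all 21 alternatives against muscle FAP and all 22 against MEF. Against muscle FAP the log2 fold change ran from 6.84 to 7.83 for Tcf21, 7.18 to 8.05 for Npnt, 1.95 to 2.51 for Inmt and 2.21 to 3.07 for Itga8. For muscle FAP against MEF, Itga8 was -0.015 when scaled by library size only (adjusted p 0.972), 0.60 with limma-voom (0.0159) and 0.60 with the compared groups alone (0.00230); the cause was not tested. Tcf21 there ran from 0.27 to 1.22 with each library left out in turn. With each library left out, the genes past the threshold numbered 6355 to 7355 for lung FAP against muscle FAP, 10976 to 11417 for lung FAP against MEF and 10707 to 11062 for muscle FAP against MEF. Against a 2-fold change (glmTreat) they numbered 1934, 5944 and 5892, in place of 7424, 11464 and 11326, since that test asks for more than a difference. Scaling by library size only moved the median of all genes from 0.04 to 0.44 for lung FAP against muscle FAP and from -0.04 to -0.62 for muscle FAP against MEF. With the replicate number as a block the counts were 6805, 11121 and 10817 and no call of the 4 genes changed. Deviations of same-numbered libraries from their group means had correlations from -0.05 to 0.06. For lung FAP 4 and 5 the same-numbered muscle FAP library was the best match, and for lung FAP 2 and 3 it was not. The labels do not say whether equal numbers share a source, and correlations this low cannot decide it. Tcf21 in muscle FAP rests on 103 reads and in MEF on 75, Npnt in muscle FAP on 162, and Inmt in MEF on 190. Their folds against these groups carry the error of low counts, as does the ratio of Npnt to Itga8 in muscle FAP.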
